A study of Arabidopsis thaliana with 23 samples.

Results

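REF6-GFP peaks were compared with REF6-ZnF-GFP peaks of a triple demethylase mutant, in chromatin immunoprecipitation with sequencing of unopened Arabidopsis thaliana flowers. The comparison covers chromosomes 1 to 3, where the REF6-ZnF-GFP list is dense: 8634 of its 9327 peaks lie there, as do 3282 of the 5393 REF6-GFP peaks. These 11916 peaks are part of 36883 peaks and domains in the 6 deposited lists of the series. A peak was called shared where it overlapped a peak of the other list by at least 1 bp.

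All plants were of the Col0 background, 5 weeks old and grown in long days, with 22 °C days and 20 °C nights. The labels do not state whether replicates were grown or collected separately, and no expression was measured against which the tissue could be checked. REF6-GFP was expressed in plants whose genotype entry names the ref6-3 mutation (3 samples). REF6-ZnF-GFP was expressed from the REF6 promoter, per the genotype entry, in plants carrying elf6-3, ref6C and jmj13G (2 samples). Both groups were titled as treated with the protein-to-protein crosslinker DSG, and both were precipitated through GFP, although the peak names of the REF6-ZnF-GFP list do not hold the word DSG. The H3K27me3 profiles come from wild-type plants (2 samples) and from elf6-3 ref6C jmj13G plants whose labels name no transgene (2 samples). The construct and the genotype differ together between the REF6 groups, so their contributions cannot be told apart. The labels do not say what the REF6-ZnF construct keeps or lacks.

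The Jumonji enzyme REF6 erases trimethylation of lysine 27 of histone H3 (H3K27me3), the mark that Polycomb complexes place on silenced genes. It carries C2H2 zinc fingers near its C-terminus that recognise a short DNA motif, and it is known for keeping developmental and hormone-response genes free of the mark. ELF6 and JMJ13 are related Jumonji demethylases of the same mark.

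Each list was called on the pooled samples of its group, so there is 1 value per group, no replicate error, and no test between groups. Intervals in parentheses are Wilson 95% intervals over peaks or genes taken as independent, and they cover counting error only. Read depth was not used here. The lists reach different depths of significance: the lowest −log10 q is 12.1 in the REF6-GFP list and 4.69 in the REF6-ZnF-GFP list. Fold enrichment is the authors' own value for each peak and is used below to rank and describe peaks within a list.

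More than 50% of REF6-GFP sites carried a REF6-ZnF-GFP peak, whereas most REF6-ZnF-GFP peaks lay elsewhere. Of the 3282 REF6-GFP peaks, 1795 were shared, or 54.7% (53.0 to 56.4%). The share was 54.2% on chromosome 1, 56.1% on chromosome 2 and 54.4% on chromosome 3, all within each other's counting error. Of the 8634 REF6-ZnF-GFP peaks, 1869 were shared, or 21.6% (20.8 to 22.5%). The shared sequence came to 1.05 Mb, of 2.73 Mb covered by REF6-GFP and 4.92 Mb covered by REF6-ZnF-GFP. When the lists were cut to the same 3282 peaks each, by −log10 q, the shares were 30.3% of REF6-GFP and 30.1% of REF6-ZnF-GFP peaks.

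The shared class depended on the overlap asked for: with an overlap of 50% of both peaks, 34.1% of REF6-GFP and 13.0% of REF6-ZnF-GFP peaks were shared. Among the 1894 overlapping pairs the smallest overlap was 2 bp, and 23 pairs overlapped by less than 50 bp. Just outside the rule, 90 unshared REF6-GFP peaks had a REF6-ZnF-GFP peak within 200 bp, the nearest at 1 bp. The median gap from an unshared REF6-GFP peak to the nearest REF6-ZnF-GFP peak was 2304 bp. From an unshared REF6-ZnF-GFP peak to the nearest REF6-GFP peak it was 5839 bp.

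The matched peaks were of similar width, and 55.0% (52.8 to 57.2%) of pairs had summits within 200 bp. Because the pairs were chosen for overlapping, short summit distances and large covered parts follow in part from the rule. In the pairs, REF6-GFP peaks had a median width of 789 bp and REF6-ZnF-GFP peaks of 683 bp. A median of 72.2% of the REF6-GFP peak and 85.0% of the REF6-ZnF-GFP peak lay in the overlap. The summits were a median of 164 bp apart (quartiles 62.3 and 399.5 bp), and 36.9% (34.7 to 39.1%) of pairs had summits within 100 bp. A REF6-ZnF-GFP peak covered the REF6-GFP summit itself in 80.2% (78.3 to 82.0%) of shared REF6-GFP peaks. Sites with 2 or more REF6-ZnF-GFP peaks under 1 REF6-GFP peak numbered 95.

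The shared part was larger among stronger peaks, more steeply in the REF6-ZnF-GFP list than in the REF6-GFP list. Split into 5 groups by fold, REF6-GFP peaks were shared in 46.7% (42.9 to 50.6%) of the lowest group and in 52.6%, 56.1%, 58.7% and 59.4% (55.6 to 63.1%) of the following groups. The highest group begins at a fold of 8.46, and 267 of its 657 peaks had no REF6-ZnF-GFP counterpart. In the REF6-ZnF-GFP list the shared part went from 14.8% (13.2 to 16.5%) in the lowest group to 36.3% (34.1 to 38.6%) in the highest. Shared REF6-ZnF-GFP peaks had a median fold of 3.44 and a median width of 677 bp, against 3.07 and 442 bp for the unshared ones. Shared REF6-GFP peaks had a median fold of 4.58 and a width of 766 bp, against 4.06 and 635 bp. A wider peak meets the 1 bp rule more readily, so width is not independent of the shared class. How far the fold differences go with width was not tested.

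**Figure D1:**
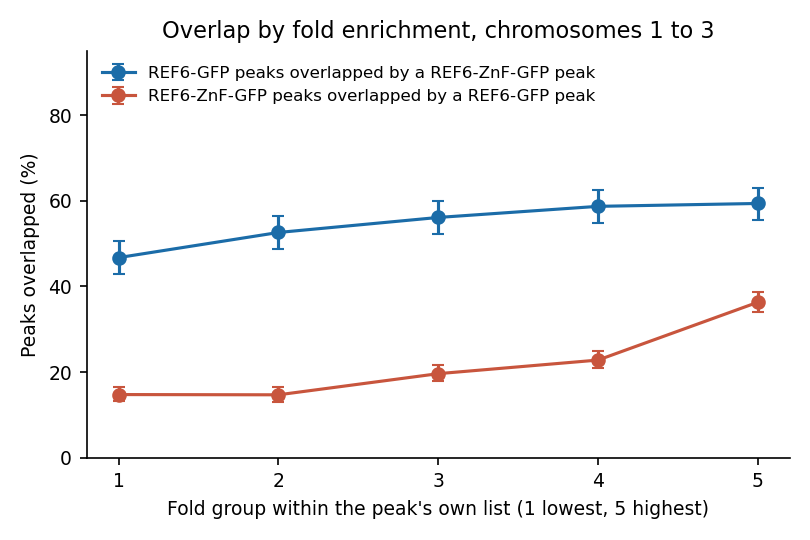
Percentage of peaks overlapped by the other list (vertical axis) in 5 groups by fold enrichment within each list (horizontal axis), with Wilson 95% intervals as bars, on chromosomes 1 to 3. REF6-GFP peaks go from 46.7 to 59.4% and REF6-ZnF-GFP peaks from 14.8 to 36.3%.

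Where both peaks were present, the strength of one did not follow that of the other. From the lowest to the highest REF6-GFP fold group, the median REF6-ZnF-GFP fold of the matched peaks was 3.35, 3.45, 3.52, 3.44 and 3.42. The median distance between summits was 137, 142, 139, 163 and 258 bp in the same order. The plot of matched pairs shows the strongest REF6-ZnF-GFP peaks at weak and strong REF6-GFP sites alike. The series holds 2 samples titled as input DNA for DSG samples. The sources used here do not state which input each list was called against.

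**Figure D2:**
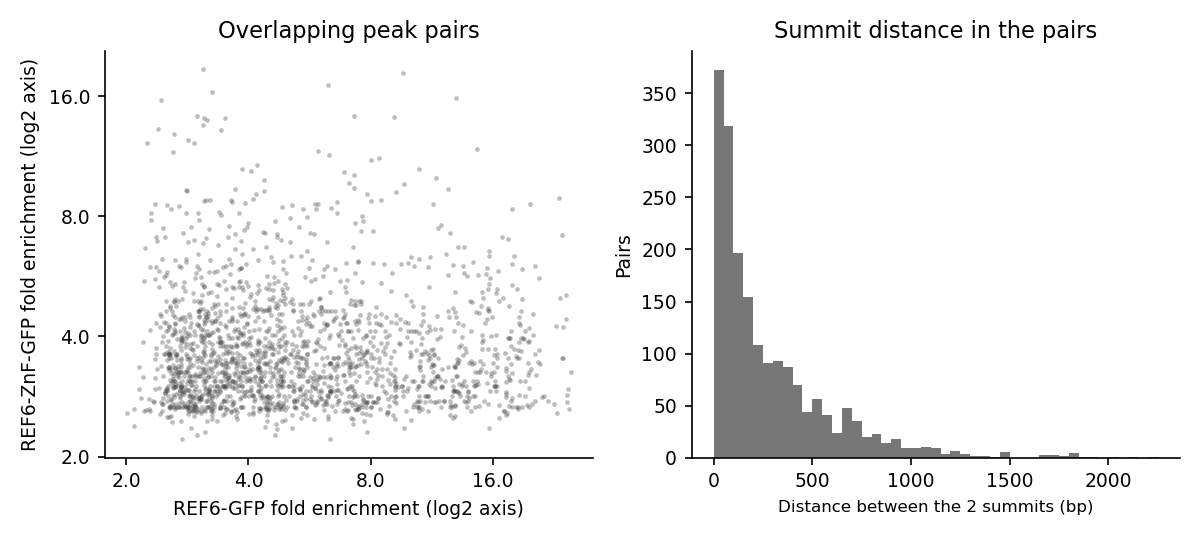
Left, fold enrichment of REF6-GFP (horizontal, log2 axis) against REF6-ZnF-GFP (vertical, log2 axis) in 1894 overlapping pairs, each point a pair. Right, number of pairs by distance between their summits in bp, in bins of 50 bp; the median is 164 bp.

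The REF6-GFP list without DSG overlapped both classes of REF6-GFP peaks about equally and hardly any unshared REF6-ZnF-GFP peaks. It overlapped 80.4% (78.5 to 82.2%) of shared REF6-GFP peaks and 78.3% (76.2 to 80.4%) of unshared ones, which was within counting error. Of unshared REF6-ZnF-GFP peaks it overlapped 0.636% (0.472 to 0.855%). Those peaks were chosen for overlapping no REF6-GFP peak with DSG, and the list without DSG overlapped 79.5% of the latter. The low share therefore follows in large part from the rule. The list titled REF6-ZnF-GFP in ref6, whose genotype entry names REF6-GFP and ref6-3 instead, has 223 peaks on these chromosomes. It overlapped 1.50% (1.04 to 2.18%) of shared and 0.202% (0.0686 to 0.591%) of unshared REF6-GFP peaks, with 1.50% of shared and 1.64% (1.36 to 1.97%) of unshared REF6-ZnF-GFP peaks. A total of 21 shared REF6-GFP peaks overlapped a peak in both other lists. Those near a gene with a symbol, named here after their values were seen, lay at PCS2, GGH3 and GGH2, AGT3, IAA20 and ABCB4, KRP6 (a cyclin-dependent kinase inhibitor), RFR1, the REF6 gene, PTR1 (a peptide transporter), and CYSC1 and SYP73. The peak over the REF6 gene was 5939 bp wide, the widest of the REF6-GFP list on these chromosomes, and both lines carry a REF6 transgene, so reads from the gene and the transgene cannot be told apart there.

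Shared sites lay inside genes more often than unshared ones in both lists. A coding gene body held the summit at 90.8% (89.3 to 92.0%) of shared and 79.2% (77.0 to 81.1%) of unshared REF6-GFP peaks. For REF6-ZnF-GFP the shares were 89.6% (88.2 to 90.9%) and 73.5% (72.5 to 74.6%). Coding gene bodies make up 53.8% of the length of these chromosomes. Read the other way, 58.1% (56.2 to 59.9%) of REF6-GFP peaks with a summit in a gene body were shared, against 34.9% (30.7 to 39.3%) of those outside. Summits outside genes but within 1 kb of one made up 7.97% of shared and 16.1% of unshared REF6-GFP peaks, and 18.6% of unshared REF6-ZnF-GFP peaks. Farther than 1 kb from any coding gene lay 1.28%, 4.71% and 7.88%. Unshared REF6-ZnF-GFP summits in long noncoding RNA genes made up 3.64%, against 2.90% of shared REF6-GFP summits.

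H3K27me3, which the overlap rule did not use, set the unshared REF6-ZnF-GFP sites apart from the other classes. Regions with a domain in the triple mutant and none in the wild type take up 5.05% of chromosomes 1 to 3. They held 39.4% (37.2 to 41.7%) of shared REF6-GFP summits, 31.1% (28.8 to 33.5%) of unshared REF6-GFP summits and 37.6% (35.4 to 39.8%) of shared REF6-ZnF-GFP summits. Of the unshared REF6-ZnF-GFP summits they held 7.85% (7.23 to 8.51%). Inside wild-type H3K27me3 domains, which take up 17.8% of the length, the unshared REF6-ZnF-GFP class had the highest share. These held 7.52% (6.39 to 8.83%) of shared and 7.06% (5.87 to 8.48%) of unshared REF6-GFP summits and 8.29% (7.13 to 9.63%) of shared REF6-ZnF-GFP summits, against 23.5% (22.5 to 24.5%) of unshared REF6-ZnF-GFP summits. Regions without a domain in either genotype held 53.1% of shared and 61.9% of unshared REF6-GFP summits and 68.6% of unshared REF6-ZnF-GFP summits, and take up 77.1% of the length.

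**Figure D3:**
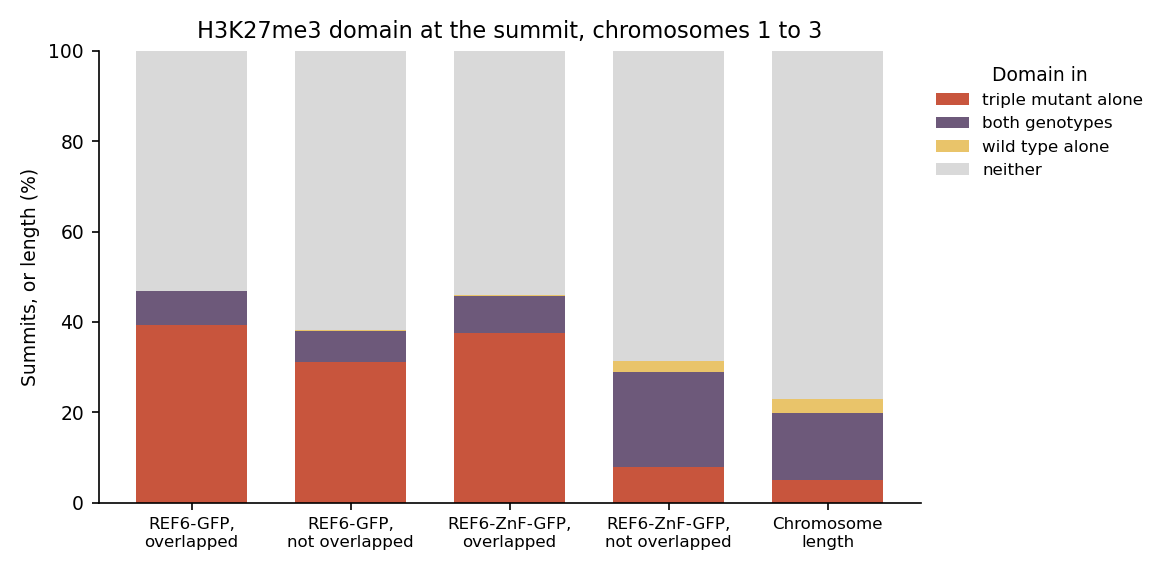
Percentage of summits (vertical axis) that lie in an H3K27me3 domain of the triple mutant alone, of both genotypes, of the wild type alone or of neither, for 4 classes of peaks, with the same division of chromosome length at the right. Unshared REF6-ZnF-GFP summits have 7.85% in regions of the triple mutant alone, and the other 3 classes have 31.1 to 39.4%.

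The REF6-GFP classes differed most among their strongest peaks. In the highest fold group, 59.5% (54.5 to 64.2%) of shared and 43.4% (37.6 to 49.4%) of unshared REF6-GFP summits lay in triple-mutant-only regions. In the lowest group the values were 24.8% (20.3 to 29.9%) and 23.7% (19.6 to 28.4%). For unshared REF6-ZnF-GFP peaks the share went from 6.79% (5.62 to 8.19%) in the lowest fold group to 12.5% (10.6 to 14.5%) in the highest. Position in or out of genes left the order of the classes in place within gene bodies, where the shares were 39.8% of shared REF6-GFP, 30.7% of unshared REF6-GFP and 9.47% of unshared REF6-ZnF-GFP summits. Outside gene bodies they were 34.9% (28.1 to 42.5%), 32.6% (27.6 to 38.0%) and 3.35% (2.61 to 4.29%), and the first pair was within counting error.

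Genes were then classed by their summits. Genes with a summit inside the body, or no farther than 1 kb from it, were called bound. A gain of H3K27me3 meant that domains covered less than 10% of the body in wild-type plants but 50% or more in triple mutant plants, and a loss meant the reverse. Of 16933 coding genes, 24.6% had a REF6-GFP summit, 51.9% a REF6-ZnF-GFP summit and 17.6% (2987 genes) both. A further 1183 genes had a REF6-GFP summit alone, 5805 a REF6-ZnF-GFP summit alone and 6958 neither. Of the 2987 genes with both, 78.0% (76.5 to 79.5%) had peaks that overlapped each other.

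Gain of H3K27me3 was more frequent among genes with a REF6-GFP summit, with or without REF6-ZnF-GFP. Over all coding genes 6.32% gained the mark, or 8.98% of the 11925 genes unmarked in the wild type. Among unmarked genes, 532 of 2456 genes bound in both gained it, or 21.7% (20.1 to 23.3%). Of those bound by REF6-GFP alone it was 181 of 922, or 19.6% (17.2 to 22.3%), which was within counting error of the former. With REF6-ZnF-GFP alone it was 227 of 4181, or 5.43% (4.78 to 6.16%), and with neither 131 of 4366, or 3.00% (2.53 to 3.55%). Of the 1071 gained genes, 49.7% were bound in both, 16.9% by REF6-GFP alone, 21.2% by REF6-ZnF-GFP alone and 12.2% in neither. Genes bound in both whose peaks overlapped gained the mark in 23.7% (21.8 to 25.6%) of cases, and those with separate peaks in 14.4% (11.7 to 17.6%).

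Gene length moved with these classes. The median length was 2308 bp for genes bound in both, 2088 bp for REF6-GFP alone, 2238 bp for REF6-ZnF-GFP alone and 1796 bp for neither. Among unmarked genes in the shortest of 3 length classes (up to 1781 bp), 37.0%, 29.8%, 9.13% and 5.23% of these classes gained the mark. In the longest class (from 2863 bp) the values were 7.84% (6.22 to 9.83%), 8.15% (5.44 to 12.0%), 1.45% (0.966 to 2.16%) and 0.476% (0.218 to 1.04%). On each of the 3 chromosomes the order of the 4 classes was the same, with 20.3 to 22.6%, 17.6 to 21.9%, 4.21 to 6.12% and 2.95 to 3.04%.

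Gain was more frequent at higher REF6-GFP fold, and among genes bound in both it showed no steady order by REF6-ZnF-GFP fold. Genes bound in both gained the mark in 13.2% (10.5 to 16.5%) of the lowest of 5 groups by REF6-GFP fold and in 39.1% (34.9 to 43.5%) of the highest. For genes with REF6-GFP alone, the lowest and highest of 5 groups gave 9.73% (6.24 to 14.9%) and 38.9% (32.2 to 46.1%). The groups were cut within each class of genes, so the classes are not matched by fold. Ranked instead by REF6-ZnF-GFP fold, genes bound in both gave 19.7% (16.4 to 23.5%), 24.2%, 18.3%, 22.0% and 24.0% (20.5 to 28.0%). With REF6-ZnF-GFP alone the shares were 5.14% (3.84 to 6.85%), 3.47% (2.43 to 4.94%), 3.83% (2.72 to 5.35%), 6.22% (4.77 to 8.07%) and 8.49% (6.79 to 10.6%), the highest group being above the second and the third beyond counting error.

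**Figure D4:**
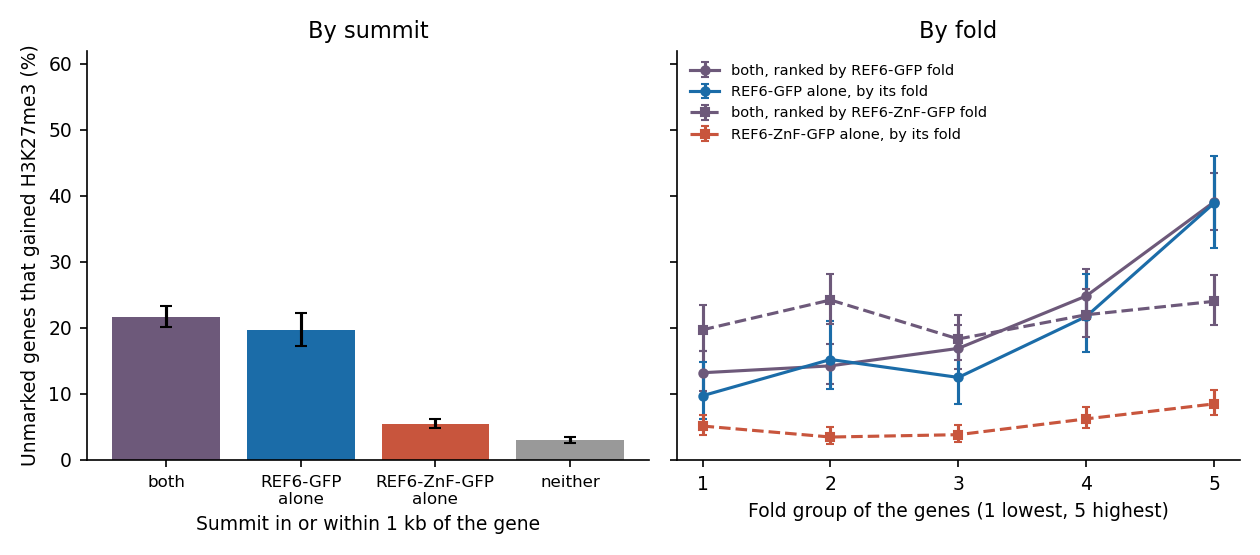
Percentage of coding genes unmarked in the wild type that gained H3K27me3 in the triple mutant (vertical axis), by the lists with a summit in or within 1 kb of the gene (left) and by fold group of the gene's strongest peak (right). Bars on points are Wilson 95% intervals. Fold groups were cut within each class of genes, and the classes with a REF6-GFP summit reach 39.1 and 38.9% in their highest groups.

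Wild-type marking ran the other way. At least 50% of the body was covered in the wild type at 10.7% (9.62 to 11.8%) of genes bound in both, 15.2% (13.3 to 17.4%) with REF6-GFP alone, 22.7% (21.6 to 23.8%) with REF6-ZnF-GFP alone and 32.6% (31.5 to 33.7%) with neither. The share of all coding genes was 24.1% (23.5 to 24.8%), and only genes with neither summit lay above it. Over all coding genes 0.537%, or 91 genes, lost the mark. Of these 67 had neither summit and 23 had REF6-ZnF-GFP alone. The remaining gene was bound in both, AT2G22805, named after its values were seen, whose coverage went from 89.0% to 0.917%. One lost gene with REF6-ZnF-GFP alone was WRKY70, a regulator of defence, which went from 84.6% coverage to 0, with a REF6-ZnF-GFP fold of 2.66.

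The shared sites with the strongest REF6-ZnF-GFP peaks included genes of plastid, RNA and amino acid functions, with and without H3K27me3. The leading peak lay at PTAC16 (AT3G46780; chromosome 3, 17228415 to 17229904, TAIR10), a protein of the plastid chromosome complex, with a REF6-ZnF-GFP fold of 18.7 and a REF6-GFP fold of 3.08. Its summits were 17 bp apart, and the gene's coverage by H3K27me3 went from 0 to 88.1%. UCN (AT1G51170; chromosome 1, 18953537 to 18954954), a protein kinase that restrains growth of the ovule integument, had 17.0 and 6.28 in the same order, with summits 806 bp apart, and went from 0 to 77.7%. PRP39 (AT1G04080; chromosome 1, 1056768 to 1057915), a factor of pre-mRNA splicing, had 16.4 and 3.24 and no H3K27me3 in either genotype. OMR1 (AT3G10050; chromosome 3, 3097442 to 3098546), the threonine deaminase of isoleucine synthesis, had 15.6 and 2.43 and no H3K27me3 either. The median REF6-GFP fold of its list was 4.33, and 5 of the 8 sites that hold the 10 genes with the strongest shared REF6-ZnF-GFP peaks were below it.

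One strong shared site touched a pair of genes that differed in H3K27me3. CYSC1 (AT3G61440), an enzyme of cyanide detoxification, and SYP73 (AT3G61450), a syntaxin, shared a REF6-GFP peak (chromosome 3, 22737561 to 22739274) whose fold was 13.0. The REF6-ZnF-GFP peak there had a fold of 15.8, with the summits 54 bp apart. CYSC1 had 0 coverage in both genotypes and SYP73 went from 0 to 94.0%. IAA20 (AT2G46990), an auxin response repressor, and ABCB4 (AT2G47000), an auxin transporter, also shared a site, with 14.1 for REF6-ZnF-GFP and 3.50 for REF6-GFP. IAA20 was covered over 60.9% of its body in wild-type and 60.0% in triple mutant plants, and ABCB4 over 3.19% and 50.9%. The tetraspanin gene TET3 (AT3G45600) had 14.2 and 9.15, and the phytochelatin synthase gene PCS2 (AT1G03980) 14.0 and 3.17. Both carried partial coverage in the wild type, 26.1% and 26.8%.

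Of the 10 genes at the strongest REF6-ZnF-GFP peaks that overlapped no REF6-GFP peak, 1 gained the mark, where the background is 6.32% of all coding genes. AGO5 (AT2G27880; chromosome 2, 11871140 to 11872276), an Argonaute protein of the germ line, had a fold of 14.7 and wild-type coverage of 29.7% and triple mutant coverage of 25.8%. HWI1 (AT1G70690; chromosome 1, 26651645 to 26652866) had 13.8, with coverage of 49.6% and 56.6%. SUMO5 and PAP13, a ubiquitin-like modifier and a purple acid phosphatase, shared a peak with a fold of 12.1 and had 0 coverage in both genotypes. The triosephosphate isomerase gene TIM (11.6), the cysteine protease gene RD21A (11.5), NAC050 (9.84) and CB5LP (9.14) also had 0 coverage in both. TIM and CB5LP had in addition a separate REF6-GFP summit, 1674 and 1277 bp away, with folds of 4.21 and 3.54. UGT87A2 (9.98) went from 45.5% to 92.7%. Like AGO5 and HWI1, it had wild-type coverage above the limit of 10% and could not be called gained. The gained gene among the 10 was IAA13 (AT2G33310), a repressor of auxin response, whose REF6-ZnF-GFP peak (chromosome 2, 14115384 to 14116173) had a fold of 13.0. It went from 8.19% to 100% coverage, and it also had a separate REF6-GFP peak with a fold of 6.64, whose summit was 3103 bp away.

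Among the strongest REF6-GFP peaks without a REF6-ZnF-GFP counterpart, 6 of 10 genes gained H3K27me3. The background is 6.32% of all coding genes and 8.98% of those unmarked in the wild type, as all 10 genes were. In the highest REF6-GFP fold group, cut within each class, 38.9% of unmarked genes with REF6-GFP alone gained it, and 39.1% of those bound in both. SNRK2-8 (AT1G78290; chromosome 1, 29457833 to 29459851), a protein kinase of stress signalling, had a REF6-GFP fold of 24.1 and went from 0 to 64.0% coverage. FRK1 (AT2G19190; chromosome 2, 8326946 to 8329857), a receptor-like kinase of immune signalling, had 23.2 and went from 0 to 100%. CSLC04 (22.0), a glucan synthase for xyloglucan, CNGC3 (20.6), a cyclic nucleotide-gated channel, RBK2 (20.4), a receptor-like cytoplasmic kinase, and the heat shock factor gene HSFA7A (20.0) went from 0 to 57.5%, 68.8%, 77.4% and 100%. MYB109 (23.3), CSLA14 (22.6), the transcription factor gene WRKY60 (22.1) and the carbonic anhydrase gene BCA6 (19.5) had 0 coverage in both genotypes. A separate REF6-ZnF-GFP summit lay in or near FRK1 (fold 2.57), CNGC3 (4.30), RBK2 (3.00) and MYB109 (3.52), between 2351 and 2888 bp from the REF6-GFP summit.

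The gained genes bound in both with the strongest REF6-GFP peaks had REF6-ZnF-GFP folds from 2.57 to 4.98, where the highest of the 5 fold groups of that list begins at 3.93. A pair of cytochrome P450 genes, CYP71B2 and CYP71B28, lay at one site with 24.5 for REF6-GFP and 2.96 for REF6-ZnF-GFP, summits 79 bp apart, and both went from 0 to over 90% coverage (91.6% and 92.7%). CYP71B7 had 22.7 and 2.71, and went from 0 to 76.4%. The phospholipase gene NPC3 had 23.5 and 4.98 and went to 81.8%. MC8, a metacaspase, had 20.7 and 3.45 and went to 100%. OCT6, an organic cation transporter, had 20.5 and 3.197 and went to 96.4%. MSS3, a calmodulin-like protein, had 20.3 and 3.61, summits 24 bp apart, and went to 98.1%. FRK1, CNGC3 and RBK2 completed these 10 genes.

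Regulators of flowering and of floral organs were in part bound by REF6-ZnF-GFP alone, the class of 34.3% of all coding genes. Of 11 floral meristem and organ identity genes on these chromosomes, 5 had a REF6-ZnF-GFP summit alone, 2 had both and 4 had neither. Of the 11, 10 were marked in both genotypes, against 22.6% of all coding genes. All 11 had wild-type coverage of 67.3% or more, so none could be called gained. AP1 (AT1G69120; peak at chromosome 1, 25985822 to 25986885), which specifies sepals and petals, had a REF6-ZnF-GFP fold of 5.08 inside a domain that covered its whole body in both genotypes. SEP3 (AT1G24260; chromosome 1, 8595427 to 8596185), a cofactor of all floral organs, had 6.37. AP3 (AT3G54340; chromosome 3, 20120579 to 20121596), a petal and stamen gene, had 4.51, UFO 3.38 and SEP2 2.75.

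The exceptions were SHP1 (AT3G58780) and SHP2 (AT2G42830), MADS factors of carpel and fruit, which had both. The SHP2 peaks (chromosome 2, 17819669 to 17820136 for REF6-GFP) had folds of 7.24 and 6.71, and SHP1 had 4.25 and 3.697, all with summits inside domains present in both genotypes. Of 7 flowering time genes, 5 had a REF6-ZnF-GFP summit alone: SOC1 (6.63), SVP (4.38), SMZ (3.82), SNZ (2.66) and TOE1 (2.53). SOC1 promotes flowering, and SVP, SMZ, SNZ and TOE1 repress it. FT and FLM had neither, and FLM went from 0 to 100% coverage.

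Boundary and leaf genes were mixed. CUC1 (AT3G15170; chromosome 3, 5109584 to 5111574), which sets organ boundaries, had a REF6-GFP fold of 10.8, an overlapping REF6-ZnF-GFP peak of 3.18, and coverage of 29.0% and 100%. CUC3 had REF6-GFP alone (3.75) and went from 41.7% to 92.2%. Of the 8 boundary and KNOX genes, 3 had REF6-ZnF-GFP alone (BOP2, KNAT6 and AS1) and 3 had neither. Of 11 leaf polarity and CIN TCP genes, 6 had REF6-ZnF-GFP alone (PHB, PHV, ATHB15, FIL, YAB2 and KAN2). Among all coding genes 34.3% had REF6-ZnF-GFP alone and 41.1% had neither. The growth regulator TCP3 had a REF6-GFP fold of 12.2 alone, while TCP4 and TCP24 had both, at separate places.

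Of 9 gibberellin oxidase genes, 3 had a REF6-GFP summit and gained the mark, all of them GA2OX genes, whose enzymes inactivate gibberellin. Over all coding genes 24.6% had a REF6-GFP summit and 6.32% gained the mark. The other 6 oxidase genes had wild-type coverage of 41.9% or more, so they could not be called gained. GA2OX1 (AT1G78440; REF6-GFP peak at chromosome 1, 29511778 to 29513392) had 17.9 and went from 0 to 100% coverage, with a separate REF6-ZnF-GFP peak of 3.21. GA2OX2 (AT1G30040; chromosome 1, 10537672 to 10538772) had 14.7 and an overlapping peak of 3.25, and went from 3.28% to 90.3%. GA2OX3 (AT2G34555) had 10.4 alone and went from 0 to 66.1%. The 3 GA3OX genes, which make active gibberellin, had no REF6-GFP summit, and GA3OX2 (4.13) and GA3OX4 (3.65) had REF6-ZnF-GFP alone.

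Of 7 abscisic acid genes, 3 had both summits, 3 had REF6-ZnF-GFP alone and 1 had neither, classes of 17.6%, 34.3% and 41.1% of all coding genes. NCED3 (AT3G14440; REF6-GFP peak at chromosome 3, 4831134 to 4833830), the stress-induced enzyme of abscisic acid synthesis, had 19.7 with an overlapping peak of 4.19, and went from 0 to 77.2%. NCED9 had 3.38 and 5.39 and went from 38.2% to 100%, and ABA2 had 3.74 and 4.39 and no H3K27me3. The auxin efflux gene PIN7 had both, with a REF6-GFP fold of 3.27 and a REF6-ZnF-GFP fold of 3.25, and its coverage went from 16.7% to 51.5%. In the list of H3K27 demethylase and Polycomb genes, REF6 had both, JMJ30 (4.52), JMJ32 (2.88) and BRM (2.84) had REF6-ZnF-GFP alone, and CLF, MEA, FIS2 and FIE had neither. BRM is a chromatin remodelling ATPase, and the other 4 of these are Polycomb subunits.

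Families taken by the prefix of the gene symbol varied around the background of 24.6% with REF6-GFP and 51.9% with REF6-ZnF-GFP. Of 19 expansin genes (EXP), which loosen cell walls, 8 had both and 2 REF6-GFP alone, and 6 of these 10 gained the mark. Over all coding genes, 17.6% had both, 6.99% REF6-GFP alone and 34.3% REF6-ZnF-GFP alone, and 6.32% gained the mark. By class, 17.8% of those with both, 15.3% of those with REF6-GFP alone and 3.91% of those with REF6-ZnF-GFP alone gained it. These shares are the background for the family counts that follow. EXPA1 (17.2 and 3.08), EXPA10 (15.7 and 6.36), EXPA15 (6.37 and 3.19), EXPA11 (5.41 and 2.91) and EXPA4 (4.99 and 2.84) had both, and EXPA16 had REF6-GFP alone (12.0). Their coverage went from 0 to between 63.4% and 100%. Of 13 XTH cell wall genes 2 had both and 7 REF6-ZnF-GFP alone, among them XTH8 (3.79), the one that gained the mark.

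The prefix CYP takes in cytochrome P450 genes and some cyclophilins, among them CYP5, CYP38 and CYP59. Of these 146 genes, 32 had both, 17 REF6-GFP alone and 37 REF6-ZnF-GFP alone. The mark was gained by 20, where 6.32% of all coding genes gained it, and 15 of the 20 had a REF6-GFP summit. CYP71B3 and CYP71B24 shared a REF6-GFP peak of 19.0 without a REF6-ZnF-GFP summit, and CYP71B20 had 15.0 and 5.16. Of 43 UGT glycosyltransferase genes 12 had both and 22 REF6-ZnF-GFP alone, and 5 of the 6 gained genes had both, for example UGT88A1 (15.7 and 5.61), UGT74F1 (13.9 and 2.90) and UGT75B1 (11.4 and 3.72). Of 39 glutathione transferase genes (GST) 11 gained the mark, where 6.32% of all coding genes did. The 11 were 4 with both, 2 with REF6-GFP alone, 4 with REF6-ZnF-GFP alone (GSTU7, GSTF9, GSTU19 and GSTU22) and 1 with neither, GSTF7. GSTU13 had 16.2 and 3.10.

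Among transcription factor genes, REF6-GFP summits lay at 14 of 36 WRKY genes, 18 of 66 MYB genes and 10 of 48 NAC genes, and REF6-ZnF-GFP alone at 14, 18 and 20. In the same order 2, 6 and 8 genes gained the mark, where 6.32% of all coding genes did. The gained NAC genes were 3 with both, 2 with REF6-GFP alone, 1 with REF6-ZnF-GFP alone and 2 with neither. The gained MYB genes were 4 with both, 1 with REF6-GFP alone and 1 with REF6-ZnF-GFP alone. Those with both included MYB50 (18.4 and 2.63), MYB61 (17.0 and 2.599) and MYB3 (6.37 and 5.03), and MYB305 had REF6-GFP alone (15.5). Of 17 IAA genes, repressors of auxin response, 5 had both, 1 REF6-GFP alone and 8 REF6-ZnF-GFP alone. IAA12 (7.34 and 3.79), IAA13 and IAA31 (REF6-GFP alone, 15.5) gained the mark.

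Of 87 ABC transporter genes, 25 had both and 13 REF6-GFP alone, and 4 gained the mark (ABCB4, ABCB13, ABCB14 and ABCG29), where 6.32% of all coding genes did. Their median length was 4838 bp, against 2059 bp over all coding genes. Longer genes gained the mark less often above, but whether length bears on the counts of this family was not tested. The 12 light-harvesting genes (LHC) had 3 with both and 6 with REF6-ZnF-GFP alone, and the 10 photosystem II genes (PSB) had 1 and 3. PSBO2 had a REF6-GFP fold of 4.18 and a REF6-ZnF-GFP fold of 9.10 and went from 0 to 82.4%. The prefix ARF takes in auxin response factors and ADP-ribosylation factors, and 10 of these 18 genes had neither summit and none gained the mark. Small sets were the 7 SAUR genes, 4 of them with both, and the 5 genes with the prefix CRK, which covers kinases of more than one kind, 3 of them with both.

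**Figure D5:**
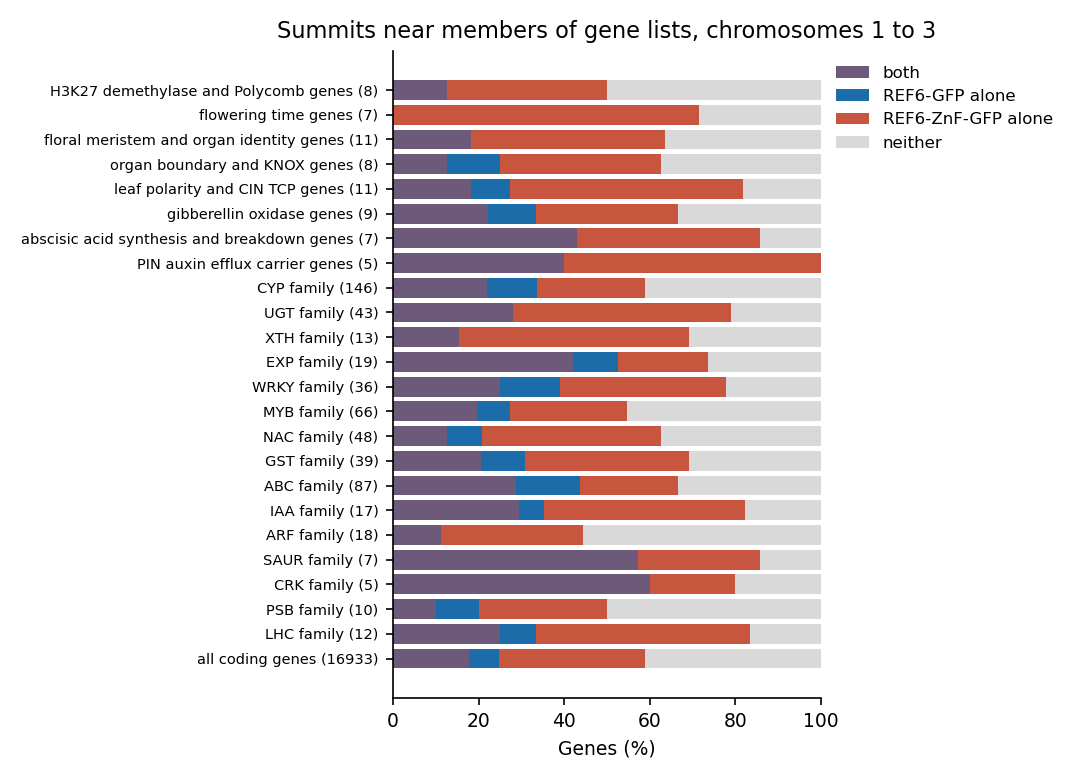
Percentage of genes on chromosomes 1 to 3 (horizontal axis) with a summit of both lists, of REF6-GFP alone, of REF6-ZnF-GFP alone or of neither, in their body or within 1 kb, for 8 gene lists and 15 families, with the number of genes in parentheses and all coding genes in the bottom bar. The flowering time genes have no REF6-GFP summit and 5 of 7 have a REF6-ZnF-GFP summit.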

How the data were processed

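Per the submitters' processing notes, the TAIR10 build was used with MACS2 2.1.0, Bowtie 1.1.2, deepTools and Picard 2.60; settings are not given there. The 6 deposited files (4 of narrow peaks, 2 of broad domains) carry no header and were read in MACS2 column order. Since their peak names say pooled, every file was treated as a single call over all samples of its group. Fold enrichment in the deposited lists is the authors' linear ratio over their control. The deposited −log10 q is the authors' value. Summit offsets are those of the deposited lists. Depth is not given by these files.

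Overlaps, coverage and Wilson intervals were computed with Python 3.11.15, pandas 2.3.3 and SciPy 1.17.1, and tested on simulated data. Gene names and gene extents came from a RefSeq table of TAIR10.1 (16933 coding genes on chromosomes 1 to 3), used to find the genes under and beside each peak. The table holds no strand and no exons, and no sequence was used. All 104 members of 8 gene lists were found in it by identifier, and 66 lie on these chromosomes. Families were taken by symbol prefix. Named genes are list and family members, the 10 genes, among those with a symbol, of highest fold at shared and at unshared peaks of REF6-ZnF-GFP and at unshared peaks of REF6-GFP, and the 10 gained genes bound in both with the highest REF6-GFP fold. The members, lists and rules were chosen with earlier results of these data known. The alternatives were an overlap of 50% of both peaks, −log10 q of at least 10 for REF6 peaks or for domains, equal list lengths, removal of the block at 3.2 to 3.6 Mb of chromosome 2 and of the REF6 gene, summits in gene bodies alone, and 80% coverage as marked. The result of 1 list member is not reported here.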

Additional observations from a re-analysis of the deposited data

How the results depend on the processing

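No paired analysis was possible because each list pools its samples and the results come from no test, and for the same reason no replicate could be left out. Of 52 recomputed values 30 moved outside the counting interval of the reported value, and the cause was not tested beyond what each alternative removes by construction. With an overlap of 50% of both peaks, 34.1% of REF6-GFP and 13.0% of REF6-ZnF-GFP peaks were shared, and regions marked in the triple mutant alone held 34.0% of unshared REF6-GFP and 10.9% of unshared REF6-ZnF-GFP summits, with 22.1% of the latter in wild-type domains. With −log10 q of at least 10 for REF6 peaks (3282 REF6-GFP and 3295 REF6-ZnF-GFP peaks), 30.3% and 30.0% were shared. In the triple mutant alone regions lay 41.9% of shared REF6-GFP and 10.3% of unshared REF6-ZnF-GFP summits, with 25.6% of the latter in wild-type domains, and 7.16% of unmarked genes with REF6-ZnF-GFP alone gained the mark. With equal list lengths these 6 values were 30.3%, 30.1%, 41.9%, 10.3%, 25.6% and 7.21%. With −log10 q of at least 10 for domains, the triple mutant alone regions held 33.4% of shared and 26.97% of unshared REF6-GFP summits, 18.9% of unshared REF6-ZnF-GFP summits lay in wild-type domains, and 6.43% of genes with REF6-ZnF-GFP alone and 3.86% with neither gained the mark. With summits in gene bodies alone, gain was 27.2% for both, 23.7% for REF6-GFP alone, 7.14% for REF6-ZnF-GFP alone and 4.11% for neither, and with 80% coverage as marked it was 13.1%, 13.2%, 3.18% and 1.63%. With the REF6 gene and the chromosome 2 block removed, all 10 values stayed inside their intervals. In each alternative run on gene gain, both classes with REF6-GFP stayed above both classes without it. The unequal significance limits of the lists and the unknown depth limit what an unshared peak shows: it was not called in the other list.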
